A study of Mus musculus with 2 samples.

Results

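The imprinted growth regulators are 10 mouse genes of which cells mostly transcribe 1 parental copy: H19, Meg3, Dlk1, Peg3, Mest, Plagl1, Grb10, Ndn, Sgce and Zim1. Members were taken as named genes, and their probes were the non-control probes whose RefSeq transcript (NM or NR accession) belongs to one of them. Of the 10 genes, 9 had such a probe, 19 probes in all, out of 20646 genes named on the array. No probe carried an accession that the RefSeq table used here assigns to H19, which therefore has no value among the members. A noncoding accession on the array, NR_001592, is absent from that table, and whether its probes measure H19 could not be settled from the sources used here, so their values stand apart under the other observations. All 9 genes with a probe were detected, meaning that the scanner software called the spot well above background both times, as were 14217 genes in the whole series.

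Primary chondrocytes of C57BL/6J mice aged 6 days were cultured for 48 h in silicon stretch chambers coated with fibronectin, and RNA was measured on 2 one-colour arrays of 1 slide. The first sample was taken before loading. The second was taken 24 h after the cells had been stretched by 10% in cycles of 0.5 Hz for 30 min. The labels name no transgene or drug for either group, and how many mice gave the cells, or whether both RNAs came from 1 isolation, is not given in the sources used here. Each time point has a single array, so the values below have no replicate, no test and no p-value. Cells kept unloaded until 24 h were not analysed here, and loading and a further day of culture cannot be told apart.

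Genomic imprinting marks 1 parental copy of a gene by DNA methylation laid down in the egg or the sperm, and cells of the body keep that mark as they divide. Many imprinted genes act on growth: those read from the father's copy tend to promote it and those read from the mother's copy tend to restrain it. Several are strongly expressed in fetal and neonatal tissues and decline as growth slows after birth. The arrays do not separate the parental copies, so each value is the sum of both. In RNA of a whole culture, fewer cells of a type and less RNA per cell cannot be told apart either.

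Sequences around the transcription start are shown for the neighbours Dlk1 and Meg3, which lay on opposite sides of 0, for Grb10, the lowest member, and for Mest, a member near 0. RefSeq promoter windows on GRCm38.p6, each from 250 bases before to 50 bases after a start, were found for 8 of the 10 members. Capitals mark each CG, the dinucleotide at which DNA can be methylated. Methylation was not measured, and the windows were placed at transcription starts whether or not these carry the imprint.

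Dlk1, chr12:109452573-109452872, forward strand: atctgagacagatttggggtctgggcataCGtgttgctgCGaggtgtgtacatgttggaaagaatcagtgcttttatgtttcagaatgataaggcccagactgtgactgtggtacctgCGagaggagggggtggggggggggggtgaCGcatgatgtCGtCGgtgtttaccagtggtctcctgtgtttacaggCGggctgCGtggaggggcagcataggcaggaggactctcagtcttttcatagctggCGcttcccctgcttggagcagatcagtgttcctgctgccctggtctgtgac
Meg3, chr12:109540746-109541045, forward strand: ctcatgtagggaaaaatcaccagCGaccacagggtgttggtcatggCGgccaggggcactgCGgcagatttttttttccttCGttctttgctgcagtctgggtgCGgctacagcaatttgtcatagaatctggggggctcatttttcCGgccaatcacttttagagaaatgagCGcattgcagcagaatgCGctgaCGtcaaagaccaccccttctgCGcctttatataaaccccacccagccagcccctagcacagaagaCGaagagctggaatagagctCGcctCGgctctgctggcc
Grb10, chr11:12037371-12037670, reverse strand: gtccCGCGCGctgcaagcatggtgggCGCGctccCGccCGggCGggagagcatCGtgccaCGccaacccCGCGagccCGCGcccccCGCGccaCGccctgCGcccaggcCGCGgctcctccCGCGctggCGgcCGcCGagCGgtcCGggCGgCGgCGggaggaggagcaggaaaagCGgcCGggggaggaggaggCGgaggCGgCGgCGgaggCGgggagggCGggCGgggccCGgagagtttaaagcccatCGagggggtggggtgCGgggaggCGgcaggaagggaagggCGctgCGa
Mest, chr6:30737800-30738099, forward strand: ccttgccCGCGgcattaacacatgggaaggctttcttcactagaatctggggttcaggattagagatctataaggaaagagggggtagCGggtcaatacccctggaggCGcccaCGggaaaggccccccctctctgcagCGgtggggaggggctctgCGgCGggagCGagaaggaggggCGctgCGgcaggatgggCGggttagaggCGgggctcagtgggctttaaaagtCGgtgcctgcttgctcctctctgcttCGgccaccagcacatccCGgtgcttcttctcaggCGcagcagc

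The 8 members had 12 windows in all, since Grb10 and Meg3 had 2 and Mest had 3, and for these genes the window with the most CG is printed. The Grb10 window printed held 45 CG, a number that 1.93% of all 32851 windows reached, while its other window held 9. The printed windows of Mest, Meg3 and Dlk1 held 17, 13 and 9 CG, and the median over all windows was 7. The other start of Meg3 had 1 CG in its window, and the 2 others of Mest had 17 and 8. The letters TGCCGC, read on both strands, are the methylated hexamer that the imprint-keeping factor ZFP57 binds. This hexamer stood in 11.6% of all windows. It was found once in the windows of Grb10 and Meg3 printed above, 2 times in that of Mest, and not in the window of Dlk1. It was also in the windows of Plagl1 and Zim1, and not in those of Peg3 and Ndn. The windows of Grb10 with 9 CG, of Meg3 with 1 and of Mest with 8 did not hold it. A match is a description of the letters and not of binding.

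Some members are also hosts of microRNAs, small RNAs cut from a longer transcript, which pair with target messages mainly through bases 2 to 8, the seed. The arrays gave no value for them, and their mature sequences are shown to place them in Mest and Meg3. Capitals mark the seed.

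mmu-miR-335-5p, within Mest, chr6:30741314-30741336: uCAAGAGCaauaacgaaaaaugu
mmu-miR-335-3p, within Mest, chr6:30741354-30741375: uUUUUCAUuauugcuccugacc
mmu-miR-770-5p, within Meg3, chr12:109563710-109563731: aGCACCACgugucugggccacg
mmu-miR-770-3p, within Meg3, chr12:109563744-109563765: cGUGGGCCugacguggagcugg

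None of the 9 measured members was past 2-fold in either direction. Over all detected genes 2.5% were, 0.668% higher and 1.83% lower, and a count of 0 among 9 does not stand apart from these shares. Grb10 was the only member past 1.5-fold, on the lower side, where 5.84% of all detected genes lay (3.66% were past 1.5-fold on the higher side and 9.5% on either side). Sgce and Dlk1 lay just inside 1.5-fold, a log2 ratio of 0.58, and Sgce passed it under 4 other ways of scaling, with 0.67 when arrays were scaled by their medians. The members ran from a log2 ratio of -0.68 (Grb10) to 0.57 (Sgce), where a log2 ratio is the log2 intensity at 24 h minus that before loading, each relative to the 75th percentile of its array. Their median was 0.13, beside -0.01 over all detected genes. Above 0 were 7 members and below it 2, and 47.6% of all detected genes were above 0.

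The scanner software gives an error for each spot, and both spots together gave an error of 0.20 on the log2 ratio of each member. This error covers differences within an array only. Sgce, Meg3, Dlk1 and Grb10, 4 of the 9 members, differed from 0 by more than 2 such errors. Among all detected genes 16.4% did so, 7.24% above 0 and 9.12% below. Plagl1, Ndn, Mest and Peg3 stayed within 1 error of 0. In all 6 members with more than 1 probe, the probes had ratios of the same sign. All probes of Plagl1 and Mest lay within 1 error of 0, where the sign says little. The share of all genes whose probes had the same sign was not computed.

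**Figure D1:**
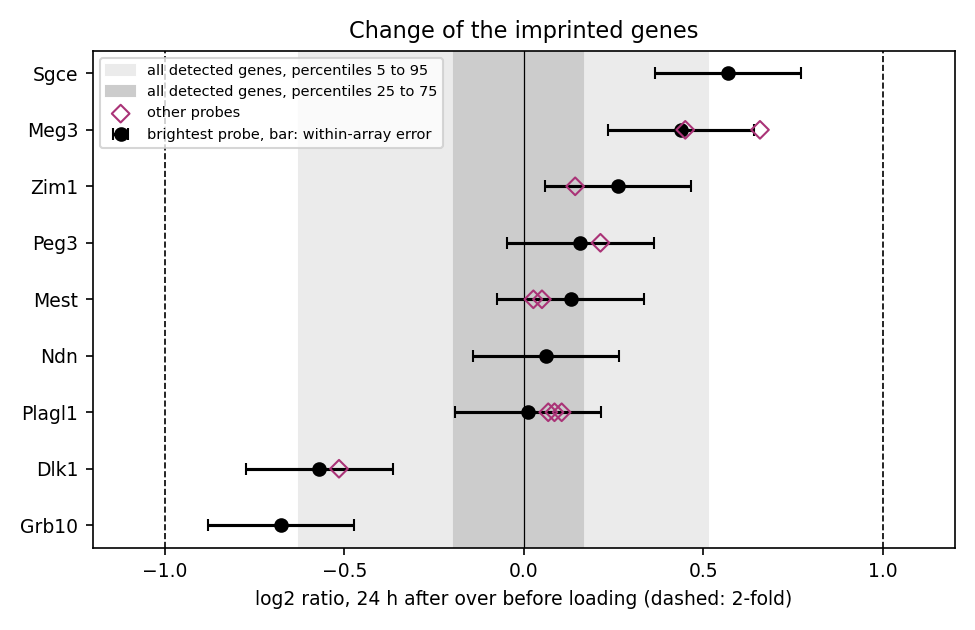
Log2 ratio of each measured imprinted gene (x axis, 24 h after over before loading) for the brightest probe (black, bar: within-array error) and the other probes (open diamonds). Grey bands give the percentiles 5 to 95 and 25 to 75 of all detected genes. Grb10 (-0.68) and Sgce (0.57) lie just outside the wider band (-0.63 to 0.51). Dlk1 (-0.57) and Meg3 (0.44) lie inside it, and no gene reaches the dashed 2-fold lines.

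The noncoding RNA Meg3 and the membrane protein Dlk1 belong to 1 imprinted cluster, where Meg3 is read from the mother's copy and Dlk1 from the father's. Dlk1, a Delta-like protein with EGF-like repeats also known as Pref-1, keeps precursor cells undifferentiated and holds back fat cell formation. Its brightest probe read 61754 before loading and 41599 at 24 h in processed intensity, a log2 ratio of -0.57, or 1.48-fold lower. The second probe of Dlk1 read 9090 and 6359, with a log2 ratio of -0.51. Both probes were thus dimmer at 24 h by nearly the same factor, the 2 ratios differing by 0.05.

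Meg3, whose long noncoding RNA is known to restrain cell growth, was brighter at 24 h. Its brightest probe read 21995 before loading and 29780 at 24 h, a log2 ratio of 0.44, or 1.35-fold higher. The other probes had log2 ratios of 0.45 (from 4148 to 5662) and 0.66 (from 1365 to 2153). All 3 probes were thus on the higher side. The log2 ratios of Meg3 and Dlk1 differed by 1.01, with a within-array error of 0.29 on the difference. Mirg, another maternally read noncoding RNA of the cluster, had a log2 ratio of 0.23, and Begain, which lies beside Dlk1, had 0.41. Rtl1, a paternally read gene of the cluster, was not well above background at either time point. Dio3, also of the cluster, had 0.15 from dim values of 28.3 and 31.4, less than its within-array error of 0.31.

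Since Dlk1 is a regulator of fat cell formation, the adipocyte markers are given beside it. Of 10 adipocyte markers, 8 were detected, and 5 of these were higher past 2-fold, where 0.668% of all detected genes were. Their summed intensity was 3019 before loading and 5250 at 24 h over all 10. Adipoq, the fat cell hormone adiponectin, read 54.2 and 265 (log2 ratio 2.29), and Cfd, the serum protease adipsin, read 26.9 and 106 (1.98). Cidea, a lipid droplet protein, read 457 and 1318 (1.53), the hormone gene Retn 35.3 and 96.4 (1.45), and Plin1, a coat protein of lipid droplets, 61.7 and 124 (1.01). Lpl, which frees fatty acids from blood lipids, had 0.59. Pparg, the master factor of fat cells, was on the lower side (-0.27), and the probes of Cidec and Lep were not well above background at either time point. With normexp background correction, 2 adipocyte markers were past 2-fold. The part of these cells in the value of Dlk1 was not tested.

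Grb10 is an adapter protein that binds the insulin and IGF1 receptors and damps their signal, and outside the nervous system it is read mostly from the mother's copy. Its single probe read 3553 before loading and 2221 at 24 h, a log2 ratio of -0.68, or 1.60-fold lower. This was the lowest ratio among the members. Under 11 other processing settings it lay between -0.75 and -0.58, the latter, with scaling by the array medians, just inside 1.5-fold. Ddc, its neighbour, which makes dopamine and serotonin and is imprinted in the heart, read 585 and 383, a log2 ratio of -0.61, on the 1 of its probes that was detected. The ratios of Grb10 and Ddc differed by -0.07, less than the within-array error of 0.29 on the difference. Cobl, an actin nucleator on the other side of Grb10, had -0.21 on its brighter probe and -0.45 on the dimmer.

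Of 16 genes of insulin and IGF receptor signalling, the pathway on which Grb10 acts, 15 were detected and none was past 2-fold, with a median log2 ratio of 0.12. Insr, the insulin receptor, was highest at 0.60 on its brightest probe, but its other probes had 0.14 and -0.02. Igf1r, the IGF1 receptor, had 0.26. Grb14, the closest relative of Grb10, was lowest at -0.45, from 1729 to 1264, followed by the growth factor gene Igf1 at -0.19 on its brightest probe. The other probes of Igf1 disagreed, with -0.15, 0.85 and -0.03, and their mean with the brightest was 0.12. Igf2, the paternally read growth factor that shares a cluster with H19, read 22376 and 24162 (0.11), and Igf2r, the maternally read receptor that clears it, had -0.02.

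Sgce encodes ε-sarcoglycan, a membrane protein that links to the dystrophin complex, and is read from the father's copy. Its single probe read 3067 before loading and 4548 at 24 h, a log2 ratio of 0.57, or 1.48-fold higher. Sgce was the highest member. Peg10, a paternally read gene of retroviral origin that starts beside Sgce on the opposite strand, was on the lower side, with log2 ratios of -0.49 (from 429 to 306) and -0.43 on its 2 probes. The ratios of Sgce and Peg10 differed by 1.05, with a within-array error of 0.29 on the difference. Ppp1r9a in the same cluster had 0.68 on its brightest probe and -0.80 on the other, so its probes disagreed in direction. Asb4, also of the cluster, read 2909 and 2392 (-0.28) on its brighter probe and had -0.35 on the dimmer.

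Among 13 genes of the dystrophin and sarcoglycan complex, all were detected, none was past 2-fold and the median was -0.08. Sgcd (-0.30), Sgcz (-0.22) and Sgcb (-0.19), which encode sarcoglycans, stayed below 0, and Sgce above it, under the 11 other settings. Sgca, another sarcoglycan gene, had -0.08 but turned to 0.02 with scaling by the array medians. Dystroglycan (Dag1, 0.37) and sarcospan (Sspn, 0.31) were above 0 as well. Dtna, a dystrobrevin, had the highest ratio of the list by brightest probe (0.45), from dim values of 22.6 and 30.8. Dmd, dystrophin, had 0.37 on its brightest probe and 0.61 and 2.12 on dimmer ones. The last of these was not well above background before loading.

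**Figure D2:**
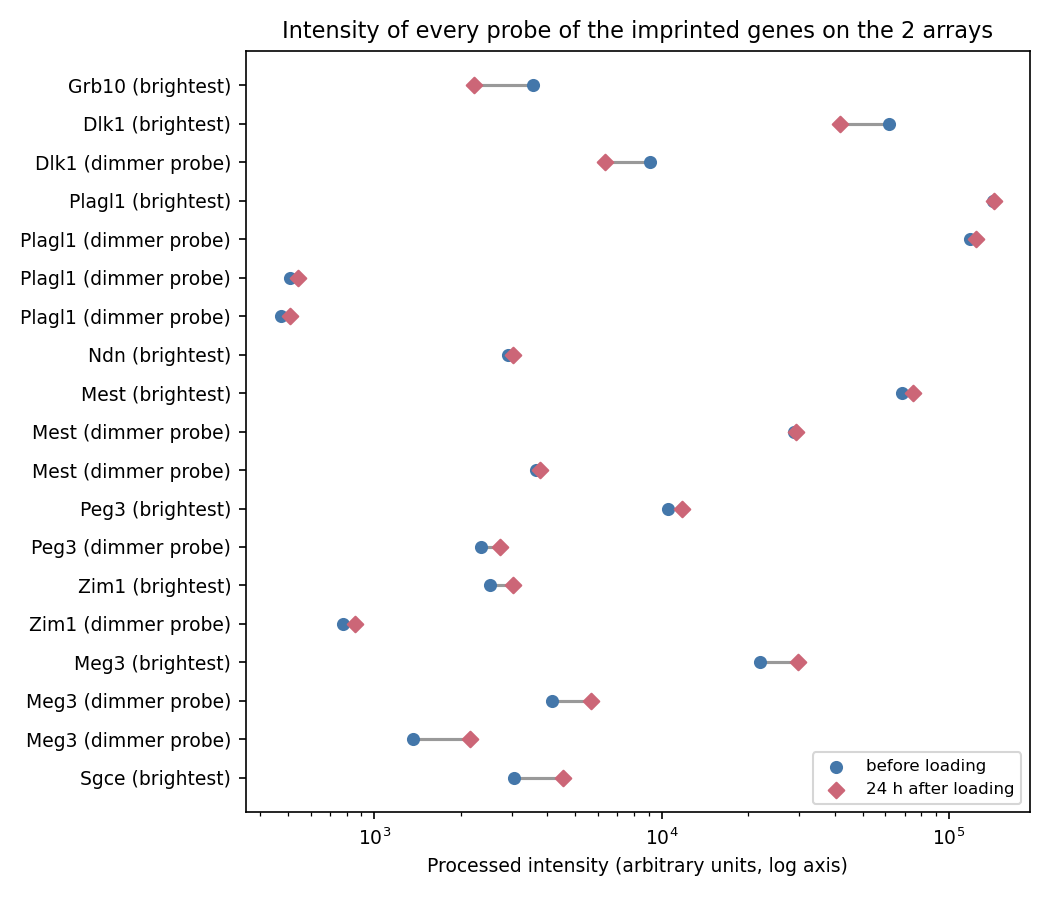
Processed intensity (x axis, arbitrary units, log scale) of all 19 probes of the imprinted genes before loading (blue circles) and 24 h after loading (red diamonds), 1 array each. Both probes of Dlk1 and the probe of Grb10 move left, all 3 probes of Meg3 and the probe of Sgce move right, and the symbols of Plagl1, Ndn and Mest overlap.

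The zinc finger genes Peg3 and Zim1 are neighbours read from opposite parental copies, Peg3 from the father's and Zim1 from the mother's. Peg3, which acts in p53 and TNF signalling and on fetal growth, read 10557 and 11768 on its brightest probe (log2 ratio 0.16) and 2356 and 2731 on the other (0.21). Zim1 read 2526 and 3029 (0.26) and 778 and 858 (0.14). Unlike Dlk1 and Meg3, these neighbours lay on the same side of 0, and their ratios differed by 0.11, less than the within-array error of 0.29. Of their cluster, Usp29 had 0.01 and Zim3 0.05, both at dim probes.

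Plagl1, also called Zac1, is a zinc finger factor that halts the cell cycle and activates other imprinted genes, Igf2 and H19 among them. Its 4 probes had log2 ratios between 0.01 and 0.11, and the brightest read 142461 before loading and 143533 at 24 h. Plagl1 thus lay nearest to 0 among the members as reported, and its bright and dim probes differed by 0.09 at most. Ndn was nearer to 0 with quantile normalization (0.09, Plagl1 0.18) and with loess (0.08, Plagl1 0.14). Plag1, a growth-promoting relative, had a log2 ratio of 0.99 from dim intensities of 37.2 and 74.0, and Plagl2 had 0.23. Plag1 passed 2-fold under 4 other ways of scaling, and with normexp correction its ratio was 0.40.

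Ndn encodes necdin, a MAGE family protein that binds E2F1 and p53 and restrains proliferation. Its single probe read 2915 and 3041, a log2 ratio of 0.06. Magel2, a MAGE family gene beside Ndn that is also read from the father's copy, read 2988 and 4492 (0.59), and Snrpn, an RNA splicing gene of the same cluster, had 0.52 and 0.55 on its detected probes. The ratio of Ndn lay 0.53 below that of Magel2, with a within-array error of 0.29 on the difference. Other listed genes of the cluster lay on both sides of 0. Ube3a had -0.05, Atp10a -0.18, and Peg12 0.23 on its brightest probe and -0.19 on the dimmer. Mkrn3 had -0.39 and 0.90 on 2 dim probes. Maged1, a MAGE relative outside the cluster, read 12602 and 18522 (0.56), Maged2 had 0.29 and Mageh1 0.27, while Nsmce3 had -0.08.

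Mest, a paternally read gene whose protein resembles hydrolases and which is abundant in growing mesenchyme, was measured at 10 spots of its brightest probe. Their mean was 68661 before loading and 75112 at 24 h, and the log2 ratio was 0.13 with an SD of 0.05 between spots of the array (from 0.05 to 0.24). That SD measures repeat spots, not repeat cultures. The other probes of Mest had 0.03 and 0.05. The neighbour Copg2 had 0.02.

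Other imprinted genes were measured as well. Of 25 listed genes of the members' own clusters, 19 were detected and none was past 2-fold, with a median log2 ratio of 0.02. Of 32 listed genes of other clusters, 26 were detected, none was past 2-fold and the median was 0.00. Over all 67 imprinted genes listed, members included, 54 were detected, 3 were higher and 4 lower past 1.5-fold. Of all detected genes in the series, 3.66% were higher and 5.84% lower past 1.5-fold. In the other clusters Zrsr1, a splicing factor gene, had the highest log2 ratio (0.59, from 769 to 1157), followed by the noncoding RNA Peg13 (0.47). Ascl2, a placental transcription factor, had the lowest (-0.75, from 225 to 134), followed by Phlda2, a growth restrainer of the placenta (-0.67, from 64.5 to 40.4). Several genes known from the skeleton and from growth control lay closer to 0. Gnas, the stimulatory G protein subunit, had 0.00, and Dcn, decorin, had 0.04. Cdkn1c, the cell cycle inhibitor p57, had 0.19, from 78697 to 89900, and Cd81, a membrane protein, had 0.34, from 30071 to 38170.

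The machinery that keeps imprints was also measured. Of 13 genes of imprint maintenance and DNA methylation, 12 were detected, none was past 2-fold and the median was -0.07. Dnmt3a, a de novo DNA methyltransferase that sets imprints in germ cells, had the highest log2 ratio (0.73, from 1978 to 3289), followed by the demethylating enzyme Tet1 (0.23). Dnmt3l, the cofactor of Dnmt3a, had the lowest (-0.76, from 186 to 110), followed by Uhrf1 (-0.46), which brings the maintenance enzyme Dnmt1 to newly copied DNA. The dimmer probe of Uhrf1 had -1.62, from 21.8 to 7.1, and was not well above background at 24 h. Dnmt1 itself had -0.27. Zfp57 (-0.24) and its partner Trim28 (0.06) lay closer to 0, and the mean over both probes of Zfp57, the dimmer of them not detected, was 0.09.

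Dlk1 is related to the ligands of the Notch receptors, and 12 genes of that pathway had been listed. Of these, 8 were detected, none past 2-fold, with a median log2 ratio of -0.13. The targets Hey1 (0.61) and Hes1 (-0.77) were the highest and the lowest, the latter from dim values of 45.5 and 26.7, followed by Notch2 (0.09) and Jag2 (-0.50).

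**Figure D3:**
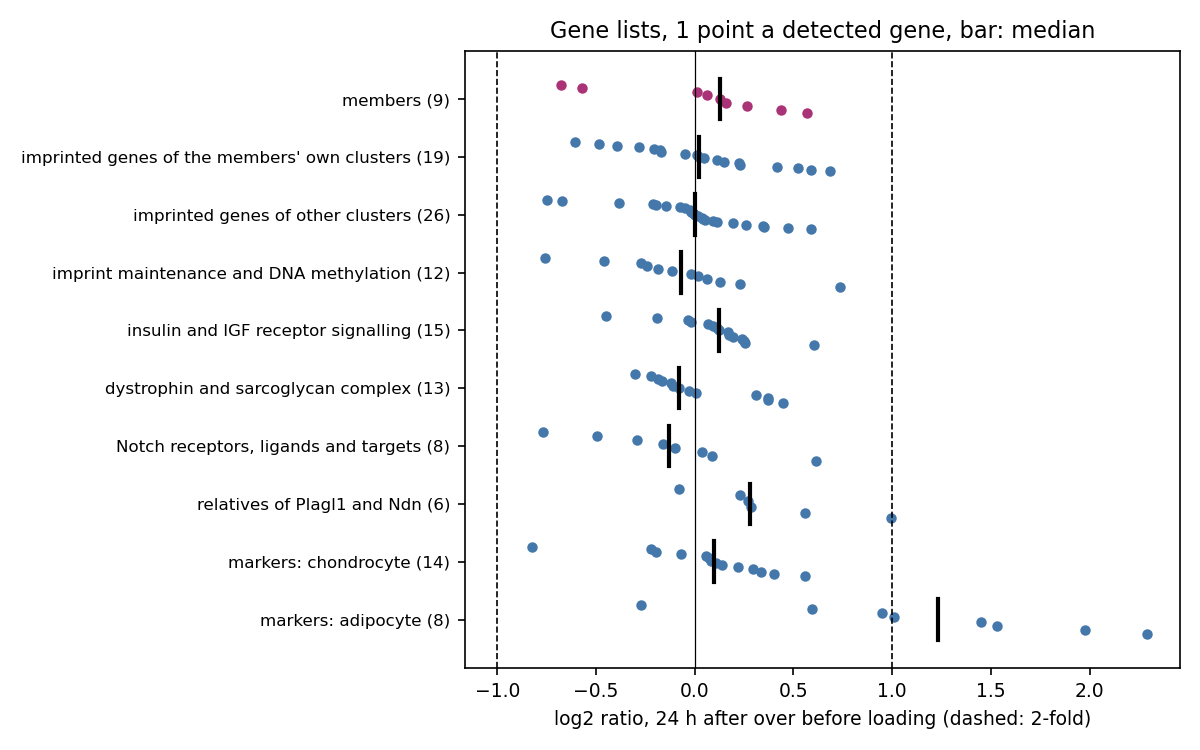
Log2 ratio (x axis, 24 h after over before loading) of every detected gene of each list (1 point a gene, number of genes in brackets), with the median as a black bar and 2-fold as dashed lines. The imprinted lists centre near 0 with no gene past 2-fold, while 5 of the 8 adipocyte markers lie past it.

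The labelled cell type was checked against 14 chondrocyte markers, all of which were detected, among them Col2a1 (499543 before loading and 474876 at 24 h), Acan and Sox9. None of them was past 2-fold. Matn1 (0.56) and Hapln1 (0.40) were highest, and Col11a1 (-0.82) and Matn3 (-0.22) were lowest.

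Markers of other cell types were measured too. Of the macrophage list 9 of 10 were detected, with a median log2 ratio of 0.09. The leukocyte gene Ptprc (1.14, from 20.9 to 46.1) was past 2-fold, followed by Lyz2 (0.46), and C1qa (-0.42) and Csf1r (-0.15) were lowest. Of the endothelial list 3 of 8 were detected, Pecam1 (0.23), Kdr (-0.05) and Vwf (-0.48), and Cdh5 and Emcn were not well above background at either time point. The summed intensities of both lists rest on single probes. Itgam gave 25496 of 30112 before loading and 24759 of 29216 at 24 h in the macrophage list, though its other probes read 70.4 and 49.0 before loading. Kdr gave 12774 of 12986 and 12375 of 12588 in the endothelial list, and its other probe was not well above background.

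Of the skeletal muscle list 4 of 10 were detected, Myh3 (0.64), Myog (-0.13), Acta1 (-0.31) and Tnnt3 (-0.78), with summed intensities of 1917 and 1585, and Myod1 and Pax7 were not well above background at either time point. The dimmer probe of Tnnt3 read 449 and 224. Of the erythroid list 3 of 8 were detected, Ermap (-0.03), Slc4a1 (-0.11) and Hba-a1 (-0.12), with sums of 1005 and 982, and Hbb-bs was not well above background. Of the fibroblast and tenocyte list 8 of 10 were detected, Dpt was past 2-fold (2.10), Fmod followed (0.51), and Scx (-0.44) and Col1a2 (0.01) were lowest, with sums of 127960 and 140824.

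Of the osteoblast list 6 of 8 were detected, 5 of them below 0, with a median log2 ratio of -0.49. Ibsp, a bone matrix protein, was lower past 2-fold (-2.06), and Alpl (-0.89), the phosphatase of mineralizing cells, and Sp7 (-0.64), a transcription factor of osteoblasts, were lower past 1.5-fold. Bglap2 (0.44) and Col1a1 (-0.04) were highest. The sums of 36608 and 35328 rest on Col1a1, which read 34458 and 33493. The part of any of these cells in the values of the imprinted genes was not tested.

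**Figure D4:**
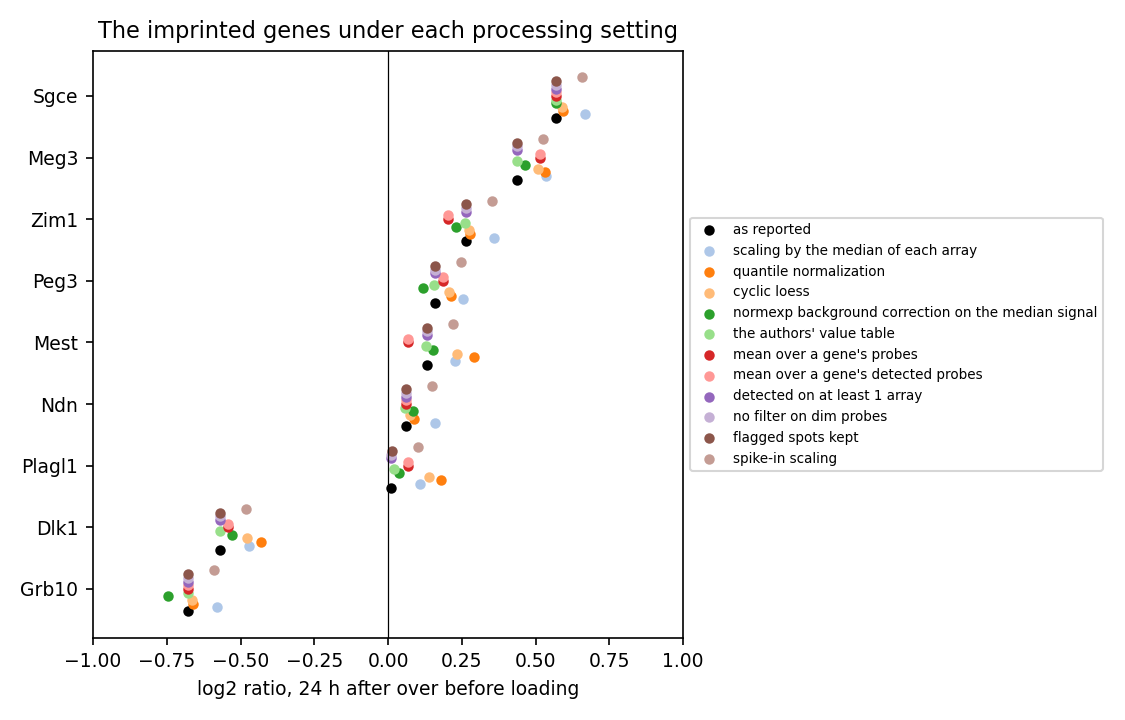
Log2 ratio (x axis, 24 h after over before loading) of each measured imprinted gene as reported (black) and under 11 other processing settings (colours). The sign of all 9 genes is the same under every setting, and Grb10 ranges from -0.75 to -0.58. Settings that only loosen detection cannot change a ratio, nor can a mean over probes for genes with a single probe. Median and spike-in scaling raise all ratios alike and cannot turn the sign of a gene above 0.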

How the data were processed

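The authors deposited scanner files with 1 intensity per spot, background-subtracted by Agilent Feature Extraction 10.10.1.1 and not normalized between the arrays. The array design is annotated on mm9. A deposited table holds the same intensity values, within 0.497%. Spots flagged as outliers were left out (141 before loading, 138 at 24 h), and log2 intensities were averaged over spots of a probe (55678 probes) and scaled by subtracting the log2 of each array's 75th percentile (466.4 and 466.2). No spot was saturated, and 59.14% and 57.66% of spots were well above background. Accessions were named through a RefSeq table of GRCm38.p6, for names only. Some listed genes are not reported here by name. The brightest probe represents a gene, detected when well above background on both arrays. Named were all members with every probe and, from each list, genes past 2-fold and the 2 highest and 2 lowest; other genes were chosen after their values were seen. Members and lists were chosen with earlier results of these data known. No test was possible with 1 array per group, and precision is limited by that number. Spots within 100 µm that passed 2-fold were counted around each member spot. Python 3.11.15, R 4.3.3 and limma 3.58.1 were used, the last for normexp (offset 50), quantile and loess alternatives.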

Additional observations from a re-analysis of the deposited data

How the results depend on the processing

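All 9 measured members kept the sign of their log2 ratio under 10 alternatives and spike-in scaling, which was added after seeing the data, and none moved by as much as its within-array error of 0.20. Some of these alternatives could not move a ratio. Those that loosen detection leave the ratios of the members as they are. A mean over probes cannot change Grb10, Ndn and Sgce, which have 1 probe each. Scaling by the array medians raised all ratios by 0.10 and spike-in scaling by 0.09, so neither could turn the sign of the 7 members above 0. The deposited table holds the same intensities within 0.497%, so it could hardly move a ratio. The count of members past 2-fold stayed 0. Past 1.5-fold, Sgce counted as 1 higher member with median, quantile, loess and spike-in scaling, and Grb10 no longer counted with median scaling, leaving 0 lower. In the list of relatives of Plagl1 and Ndn, 1 gene passed 2-fold under the same 4 scalings. With normexp correction 2 adipocyte and 0 macrophage markers passed. With the mean over probes 1 gene each passed in the lists of imprint maintenance and of the dystrophin complex. Looser detection brought in dim genes: 1 imprinted gene of other clusters with detection on at least 1 array, and 2 of them, 1 endothelial and 3 erythroid markers with no filter. Over all genes, the 95 higher and 260 lower past 2-fold became 130 and 205 (median scaling), 124 and 208 (spike-in scaling), 38 and 117 (normexp), 191 and 506 (detected on 1 array or more) and 491 and 981 (no filter). The higher share of these calls was 26.8% as reported, and 38.8% and 37.3% under these first 2 scalings. The cause was not tested. Of 152 other listed genes, the ratio of 15 moved beyond its own within-array error with normexp correction, of 16 with the mean over all probes and of 10 with the mean over detected probes. Normexp used the median signal, as the files used here hold no mean. Within 100 µm of the Grb10, Sgce and bright Dlk1 and Meg3 spots, at most 2 spots had passed 2-fold in either direction; 7 had, all higher, around the dimmer Peg3 probe, and 5 higher, 8 lower and 6 lower had around 3 of the Mest spots. Dim genes are limited by signal, since intensities of 17.3 (before loading) and 17.8 (24 h) were the lowest called well above background. No paired analysis was possible because each time point has 1 array.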

Other observations

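Probes under the noncoding accession NR_001592, which the RefSeq table used here does not list, were well above background on both arrays. The brighter read 478094 before loading and 452379 at 24 h, a log2 ratio of -0.08, and the dimmer read 349.9 and 312 (-0.16). Both ratios lay within the within-array error of 0.20 to 0.21. These probes may measure H19, which no file or table used here settles, so they are not counted among the members.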
